A study of Homo sapiens with 4 samples.

Results

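The genes of glycolysis and of the response to low oxygen were examined in G401 cells, a line established from a rhabdoid tumor of the kidney, after CRISPR-Cas9 knockout of BRD9. The 42 genes were taken by their symbols from the 57820 gene models of the deposited tables, and each symbol matched 1 model. They comprised 17 glycolytic enzymes, 5 regulators of glycolytic flux, 7 subunits and oxygen sensors of the hypoxia-inducible factor (HIF) and 13 other HIF target genes. BRD9 KO and LacZ control were compared with 2 RNA-seq libraries each. The study's methods describe, for its cell lines in general, stable Cas9 expression and a lentiviral guide under puromycin selection. The groups are named in the sample titles. LacZ, a bacterial gene with no human counterpart, was taken here as the target of the control guide. No clonal line is described for these libraries. The study reports that BRD9 deletion impaired proliferation of G401 cells and that no G401 clones without BRD9 could be recovered. Any part of slower growth in the values below was not tested. The sources used here give neither the guide nor the day of harvest nor the oxygen tension of these cultures. Both groups lacked SMARCB1, the SWI/SNF subunit whose loss defines rhabdoid tumors, and it was at 0 counts in all 4 libraries.

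Glycolysis converts glucose to pyruvate, and lactate dehydrogenase then turns pyruvate into lactate. HIF is a heterodimer of an oxygen-labile alpha subunit and the stable beta subunit ARNT. When oxygen is present, EGLN prolyl hydroxylases mark the alpha subunit for VHL, the recognition subunit of a ubiquitin ligase. When oxygen falls, the dimer binds a short DNA element and raises transcription of most glycolytic enzymes and of genes for angiogenesis, pH control, collagen hydroxylation and stress. The set therefore holds a metabolic arm and a wider hypoxia arm that can be read side by side in the same libraries.

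Libraries held 19559200 and 16393900 estimated counts in BRD9 KO and 15053195 and 16673430 in LacZ control. BRD9 itself had 29.4 and 26.8 CPM (counts scaled to a common library size with TMM factors) in BRD9 KO and 48.2 and 53.8 CPM in LacZ control, a log2 fold change of -0.86 (SE 0.07, edgeR quasi-likelihood test, adjusted p = 2.84e-09). The libraries expressed VIM, KRT8 and KRT18, which rhabdoid lines coexpress (log2 fold changes -0.49, 0.42 and 0.37, all past the threshold), and of the 12 markers of fibroblasts, leukocytes, endothelium and renal tubule found in the tables, 5 were at 0 in all libraries. The summed level of these 12 markers was 244 and 242 CPM in BRD9 KO and 211 and 219 CPM in LacZ control, nearly all of it from CD68 and PDGFRA, and 2.10 and 2.51 CPM in BRD9 KO against 2.92 and 3.18 CPM in LacZ control without that pair. Mitochondrially encoded genes took 8.15% of counts in each BRD9 KO library and 8.44% and 8.48% in LacZ control. With these genes removed before the fit, the calls of the 38 genes tested below stayed the same. Any other part of these differences in the results below was not tested. Bulk libraries cannot separate fewer cells making a transcript from less transcript per cell, and p-values measure the spread between 2 libraries a group, described as biological replicates in the study's methods, which may in part be technical.

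Of the 42 genes, 38 had enough counts to be tested and EGLN3, CA9, NDRG1 and MIF were at 0 counts in every library. In BRD9 KO 17 genes rose and 4 fell at an edgeR adjusted p under 0.05, and 17 did not pass. This was 55.3% of the 38 tested genes, against 38.6% of all 15288 genes tested, of which 20.5% rose and 18.1% fell. The share of genes that passed grew with level over all genes, so it was also taken by level. At a mean of 10 CPM or more, 60.6% of 33 members passed against 49.0% of all genes, and at 100 CPM or more 68.4% of 19 members passed against 67.6% of all 2211 genes. Changes were small: 20 of the 21 called genes differed by less than 1.5-fold, and the median log2 fold change was 0.09 over the 38 genes and -0.01 over all genes tested. The BRD9 KO and LacZ control libraries did not overlap in 31 of the 38 genes, against 68.6% of all genes tested.

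The 4 roles are described by counts and medians, with no test between them. Among the 17 glycolytic enzymes 9 rose and 1 fell (58.8% passed), with a median log2 fold change of 0.07. Over all genes tested 38.6% passed, and 67.6% of those at a mean of 100 CPM or more. Among the 10 tested other HIF targets 4 rose and 1 fell, with a median of -0.00 because higher and lower values cancelled. The median size of the change, without its sign, was 0.09 on the log2 scale for glycolytic enzymes and 0.37 for other HIF targets, against 0.18 for all genes tested. Over all genes this size fell with level, to 0.13 at a mean of 10 CPM or more and 0.11 at 100 CPM or more. The roles differ in level, and the part of level in their contrast was not tested. The flux regulators had 1 gene that rose and 2 that fell of 5, and the HIF subunits and sensors had 3 that rose and none that fell of 6 tested.

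**Figure D1:**
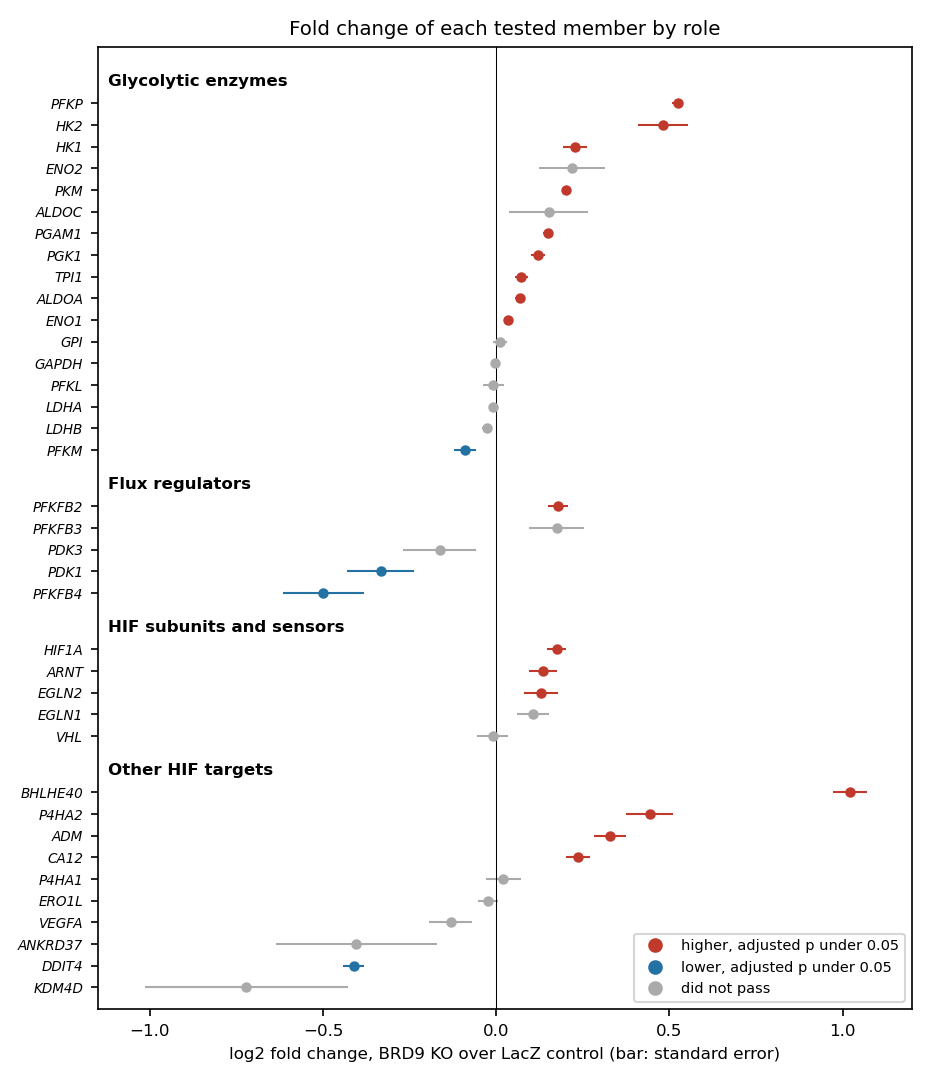
Log2 fold change (x axis, BRD9 KO over LacZ control, edgeR) of 37 tested genes (y axis) grouped by role, with bars of 1 standard error, red for genes that rose, blue for genes that fell and grey for genes that did not pass. Glycolytic enzymes lie between -0.09 and 0.52, whereas other HIF targets run from -0.72 to 1.02. EPAS1, below 1 CPM, is left out.

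The DNA element bound by HIF has the core ACGTG or GCGTG, and both were looked for on both strands in RefSeq promoter windows (GRCh38.p14) of 300 bases, running from 250 before to 50 after each annotated start. Windows existed for 38 of the 42 genes and not for PFKFB2, VHL, VEGFA and NDRG1. ACGTG was present in 27 of the 62 windows of these genes (43.5%) and in 21.4% of all 34943 windows. Counted by gene, it was in at least 1 window of 23 of the 38 genes and of 6746 of all 27167 genes. It was present in 15 of 37 windows of glycolytic enzymes and in 7 of 11 windows of other HIF targets. GCGTG was in 37.1% of member windows and 36.5% of all windows, and 1 or both of these cores were in 41 of the 62 member windows (66.1%) and in 48.4% of all windows. The longer palindrome CACGTG, the E-box read by bHLH factors, contains ACGTG and was in 14.5% of member windows and 7.23% of all windows. Some genes have several windows, and the 42 genes were chosen as genes of this pathway. The shares therefore describe the list and carry no test.

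The stretches that follow show ACGTG in promoters of genes that changed in opposite directions, of abundant genes that did not pass the test, and of CA9, a hypoxia marker gene at 0 counts here. Each runs 5′ to 3′ on the gene's own strand (plus in all of them), with every ACGTG in capitals, which reads CACGT where it lies on the other strand, and GCGTG left in lower case. In GAPDH the capitals spell the palindrome CACGTG.
HK2 (chr2:74834069-74834093): tgggcgtgcgCACGTcactgatccg
PFKP (chr10:3069040-3069064): acgagcgcctACGTGatgcccggcc
BHLHE40 (chr3:4979278-4979302): cagggtagaaCACGTagctccaacc
DDIT4 (chr10:72273789-72273813): aacgttgcttACGTGcgcccggagt
PDK1 (chr2:172556072-172556096): cCACGTccctCACGTaccactcggc
GAPDH (chr12:6535174-6535198): ctgcggggtCACGTGtcgcagagga
LDHA (chr11:18394480-18394504): tgggttcccgCACGTccgccggccc
CA9 (chr9:35673900-35673924): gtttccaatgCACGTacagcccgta
A match is only a run of letters and does not show that HIF was bound. Of the 21 tested genes with ACGTG in a window, 7 rose, 3 fell and 11 did not pass, with a median log2 fold change of 0.07. Of the 10 with GCGTG but no ACGTG, among them HK1, PKM, CA12 and ADM, 6 rose, 1 fell and 3 did not pass, with a median of 0.19. Of the 4 with windows but neither core (PGAM1, ARNT, P4HA2 and KDM4D), 3 rose and 1 did not pass. Over all genes tested 20.5% rose and 18.1% fell. These classes were not matched for level or for windows per gene, of which HK1 and PFKM had 7 each. No test was made between them.

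Glucose enters glycolysis through hexokinase, which traps it as glucose 6-phosphate. Both hexokinases in the set rose. HK1, the housekeeping form, had 110.1 and 113 CPM in BRD9 KO and 94.7 and 96.0 CPM in LacZ control (log2 fold change 0.23, SE 0.03, edgeR adjusted p = 2.05e-05). HK2, the inducible form, with ACGTG in its promoter as shown above, had 30.9 and 33.1 CPM in BRD9 KO and 21.7 and 24.0 CPM in LacZ control (0.48, SE 0.07, edgeR adjusted p = 2.45e-05). The libraries of the groups did not overlap for either gene. Per transcript length, in TPM (a share of all transcripts of a library), HK1 remained the main form, and HK2 made up 14.2% and 14.9% of the summed HK1 and HK2 level in BRD9 KO and 11.9% and 13.5% in LacZ control. GPI, the isomerase of the next step, overlapped between groups at 282 and 276 CPM in BRD9 KO and 279 and 275 CPM in LacZ control.

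Phosphofructokinase commits the sugar to glycolysis and its isozyme shares shifted. PFKP, the platelet form, had 592 and 589.8 CPM in BRD9 KO and 412 and 409.9 CPM in LacZ control (log2 fold change 0.52, SE 0.02, edgeR adjusted p = 8.18e-16). The SD within a group was 1.27 CPM in BRD9 KO and 1.43 CPM in LacZ control. An SD from 2 libraries is a rough measure that can fall below counting error. The gap between groups is therefore better read against the SE of the log2 fold change. PFKL, the liver form, overlapped between groups at 131 and 129.8 CPM in BRD9 KO and 133 and 129 CPM in LacZ control. PFKM, the muscle form, was the only glycolytic enzyme that fell in CPM, with 106 and 105 CPM in BRD9 KO and 114 and 111 CPM in LacZ control (-0.09, SE 0.03, edgeR adjusted p = 0.0336). That call was lost under DESeq2 (adjusted p = 0.314) and when any 1 library was left out (edgeR adjusted p 0.0711 to 0.206), and in TPM the groups overlapped, at 75.3 and 72.4 TPM in BRD9 KO and 73.9 and 75.1 TPM in LacZ control. PFKM also shares exon sequence with SENP1 on the opposite strand, and the library kit does not mark strand. PFKP supplied 72.2% and 73.4% of the summed phosphofructokinase TPM in BRD9 KO and 65.0% and 64.6% in LacZ control.

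In the middle of the pathway, where the sugar is split and oxidized, the changes were small. ALDOA, the main aldolase, had 733 and 754 CPM in BRD9 KO and 709 and 708 CPM in LacZ control (log2 fold change 0.07, SE 0.01, edgeR adjusted p = 0.000924). TPI1, triose phosphate isomerase, had 375 and 379 CPM in BRD9 KO and 358 and 359 CPM in LacZ control (0.07, SE 0.02, edgeR adjusted p = 0.00307). The rise in CPM was 4.83% for ALDOA and 5.16% for TPI1, while in TPM the ratio of the group means was 1.11 for ALDOA and 1.08 for TPI1, and the ALDOA call was lost without LacZ control library 2 (edgeR adjusted p = 0.0508). ALDOC, the brain aldolase, made up less than 1% of aldolase TPM in every library and did not pass. GAPDH, which oxidizes glyceraldehyde 3-phosphate and was the most abundant of the 42 genes per length at a mean of 3103 TPM, had 2222 and 2217 CPM in BRD9 KO and 2228 and 2223 CPM in LacZ control. That difference was -0.00 on the log2 scale with an SE of 0.01 and did not pass (edgeR adjusted p = 0.744).

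In the lower part of the pathway, where ATP is regained, 4 enzymes in a row rose. All 4 had a mean above 100 CPM, a level at which 67.6% of all genes tested passed in either direction. PGK1, phosphoglycerate kinase, had 315 and 314 CPM in BRD9 KO and 288 and 291 CPM in LacZ control (log2 fold change 0.12, SE 0.02, edgeR adjusted p = 6.06e-05). PGAM1, phosphoglycerate mutase, had 635 and 632 CPM in BRD9 KO and 571 and 572 CPM in LacZ control (0.15, SE 0.01, edgeR adjusted p = 6.44e-08). The rise was 8.73% for PGK1 and 10.9% for PGAM1, with no overlap of the groups. ENO1, the main enolase, had 1479 and 1490.4 CPM in BRD9 KO and 1446 and 1454 CPM in LacZ control (0.03, SE 0.01, edgeR adjusted p = 0.00951), the smallest change that passed among the 42 genes. PKM, pyruvate kinase, had 2800.4 and 2813 CPM in BRD9 KO and 2428 and 2453 CPM in LacZ control (0.20, SE 0.01, edgeR adjusted p = 1.93e-13). Gene-level counts do not separate the M1 and M2 splice forms of PKM. ENO2, the neuronal enolase, made up less than 1% of enolase TPM in every library and did not pass, at 17.2 and 17.0 CPM in BRD9 KO and 16.1 and 13.5 CPM in LacZ control, although without LacZ control library 1 it did (0.35, edgeR adjusted p = 0.0328).

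The terminal step did not follow. LDHA, the lactate dehydrogenase subunit best known as a HIF target, had 1023 and 1017 CPM in BRD9 KO and 1029 and 1025 CPM in LacZ control (log2 fold change -0.01, SE 0.01, edgeR adjusted p = 0.527). LDHB, the heart subunit, had 657 and 671 CPM in BRD9 KO and 673 and 679 CPM in LacZ control (-0.03, SE 0.01, edgeR adjusted p = 0.161). LDHA held 59.0% and 58.8% of the summed TPM of both subunits in BRD9 KO and 59.0% and 59.3% in LacZ control. The 7 glycolytic enzymes that did not pass were GPI, PFKL, ALDOC, GAPDH, ENO2, LDHA and LDHB.

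Summed over the 17 enzymes, glycolytic transcripts amounted to 12728 and 12834 TPM in BRD9 KO and 11996 and 12057 TPM in LacZ control, a ratio of the group means of 1.06. PKM made up 40.7% of that difference, PFKP 17.2% and ALDOA also 17.2%, the last resting on a change that was larger in TPM than in CPM. The corresponding sums were 436 and 444 TPM in BRD9 KO and 439.9 and 446 TPM in LacZ control for the other HIF targets, so these overlapped between groups. TPM is a share of each library, and these sums carry no test.

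**Figure D2:**
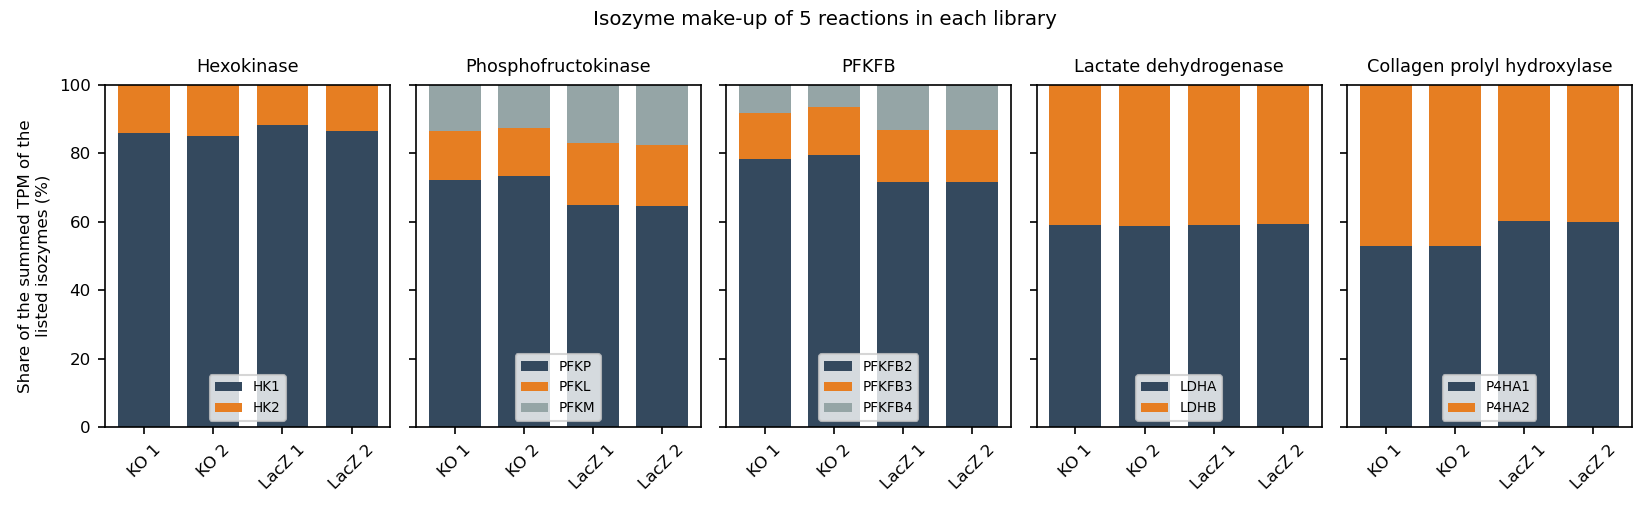
Share (y axis, %) of each isozyme in the summed TPM of its reaction in each library (x axis, BRD9 KO 1 and 2, then LacZ control 1 and 2) for 5 groups of isozymes among the 42 genes. PFKP, PFKFB2 and P4HA2 take larger shares in both BRD9 KO libraries than in both LacZ control libraries, while LDHA lies between 58.8% and 59.3% in all 4.

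The flux regulators act beside the pathway and moved in both directions. PFKFB enzymes make and break fructose 2,6-bisphosphate, the main activator of phosphofructokinase. PFKFB2, best known from heart, had 159.5 and 157 CPM in BRD9 KO and 139 and 141 CPM in LacZ control (log2 fold change 0.18, SE 0.03, edgeR adjusted p = 4.56e-05). PFKFB4, a HIF-inducible form, had 8.21 and 7.90 CPM in BRD9 KO and 10.9 and 11.8 CPM in LacZ control (-0.50, SE 0.12, edgeR adjusted p = 0.00185). Of the summed PFKFB TPM, PFKFB2 held 78.1% and 79.5% in BRD9 KO and 71.6% and 71.7% in LacZ control, and PFKFB4 held 8.26% and 6.59% in BRD9 KO and 13.2% and 13.4% in LacZ control. PFKFB2 was thus the main form in every library and took a larger share in BRD9 KO, and its exons overlap YOD1 on the opposite strand. PFKFB3, the form with the highest kinase activity relative to its phosphatase, did not pass (0.17, SE 0.08, edgeR adjusted p = 0.091). The scale mattered here, since the groups did not overlap in CPM (20.4 and 21.0 in BRD9 KO, 17.8 and 18.8 in LacZ control) but did in TPM (8.43 and 8.38 in BRD9 KO, 8.44 and 8.41 in LacZ control), with effective lengths of 4020 and 4157 bases in BRD9 KO and 3490 and 3673 bases in LacZ control.

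Pyruvate dehydrogenase kinases keep pyruvate out of the mitochondrial citric acid cycle. PDK1, a HIF target with ACGTG in its promoter as shown above, had 12.4 and 11.9 CPM in BRD9 KO and 14.9 and 15.8 CPM in LacZ control (log2 fold change -0.33, SE 0.10, edgeR adjusted p = 0.00959). The call was lost under DESeq2 (adjusted p = 0.113) and under limma on log2(TPM + 1) (log2 fold change -0.11, adjusted p = 0.626). It was also lost without BRD9 KO library 2 (-0.30) and without LacZ control library 2 (-0.28). In TPM the values were 4.66 and 5.09 in BRD9 KO and 5.13 and 5.55 in LacZ control. PDK3 overlapped between groups, at 12.5 and 14.3 CPM in BRD9 KO and 13.7 and 16.1 CPM in LacZ control.

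Among the HIF subunits and sensors, 3 rose by small amounts. HIF1A, the alpha subunit, had 170.4 and 175 CPM in BRD9 KO and 152 and 153 CPM in LacZ control (log2 fold change 0.18, SE 0.03, edgeR adjusted p = 3.91e-05). It provided between 98.9% and 99.5% of the summed TPM of HIF1A and EPAS1 in all 4 libraries. EPAS1, the gene of HIF-2 alpha, was near the limit of detection, at 0.616 and 0.612 CPM in BRD9 KO and 0.332 and 0.720 CPM in LacZ control. ARNT, the beta subunit, had 71.1 and 68.8 CPM in BRD9 KO and 64.2 and 63.4 CPM in LacZ control (0.14, SE 0.04, edgeR adjusted p = 0.0116).

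HIF protein is controlled mainly by its degradation, which RNA counts do not measure. EGLN2, a prolyl hydroxylase, had 53.8 and 52.7 CPM in BRD9 KO and 50.2 and 47.3 CPM in LacZ control (log2 fold change 0.13, SE 0.05, edgeR adjusted p = 0.0429). The ARNT and EGLN2 calls were both lost under DESeq2 (adjusted p 0.0938 for ARNT and 0.188 for EGLN2) and without LacZ control library 2 or BRD9 KO library 1, and that of EGLN2 also without BRD9 KO library 2. EGLN1, the principal oxygen sensor, did not pass, at 55.1 and 55.0 CPM in BRD9 KO and 51.0 and 51.4 CPM in LacZ control (0.11, SE 0.05, edgeR adjusted p = 0.0784). VHL overlapped between groups at 79.4 and 72.3 CPM in BRD9 KO and 77.6 and 75.7 CPM in LacZ control. EGLN3, the sensor that HIF itself induces in many cells, was at 0 in every library.

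**Figure D3:**
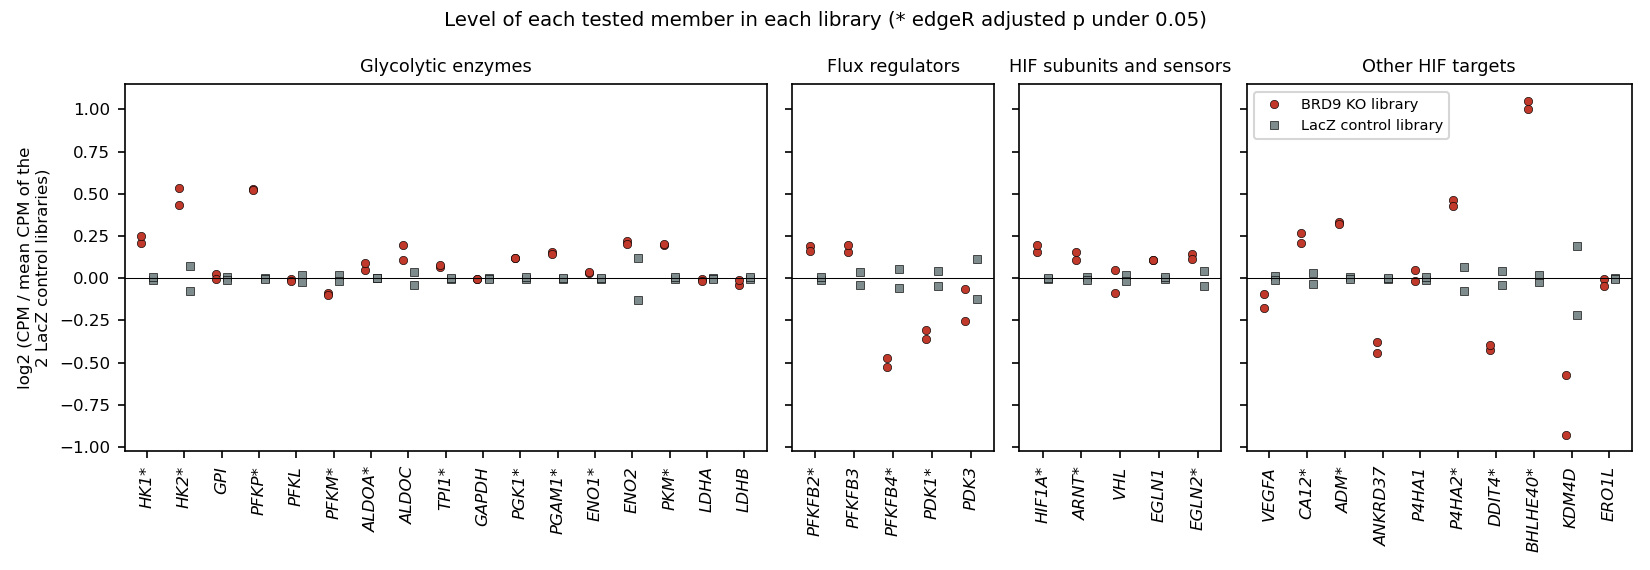
Level of 37 tested genes in each library (y axis, log2 of CPM over the mean of the 2 LacZ control libraries), by gene (x axis) and role, with red circles for BRD9 KO and grey squares for LacZ control. BHLHE40 lies furthest above 0 and KDM4D, which did not pass, furthest below it, while GAPDH, LDHA and VHL lie near 0; asterisks mark genes that passed and EPAS1 is left out.

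The other HIF targets held both the largest rise and one of the larger falls of the set. BHLHE40, a bHLH repressor of the circadian clock and of differentiation genes, had 70.0 and 72.4 CPM in BRD9 KO and 34.5 and 35.6 CPM in LacZ control (log2 fold change 1.02, SE 0.05, edgeR adjusted p = 2.41e-12). It was the only one of the 42 genes past 1.5-fold among those called, at 2.03-fold. DDIT4, an inhibitor of mTORC1 signalling also known as REDD1, had 141 and 144 CPM in BRD9 KO and 184 and 195 CPM in LacZ control (-0.41, SE 0.03, edgeR adjusted p = 1.58e-09). Both genes hold ACGTG in a promoter window, as printed above, and their groups did not overlap.

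P4HA2, an alpha subunit of collagen prolyl 4-hydroxylase, had 34.5 and 33.7 CPM in BRD9 KO and 23.8 and 26.3 CPM in LacZ control (log2 fold change 0.44, SE 0.07, edgeR adjusted p = 2.75e-05). P4HA1, the other alpha subunit in the set, overlapped at 47.7 and 45.6 CPM in BRD9 KO and 45.8 and 46.3 CPM in LacZ control. P4HA2 therefore held 47.0% and 47.2% of the TPM of both subunits in BRD9 KO and 39.7% and 40.3% in LacZ control. ADM, the vasodilator peptide adrenomedullin, had 56.8 and 56.2 CPM in BRD9 KO and 45.2 and 44.8 CPM in LacZ control (0.33, SE 0.05, edgeR adjusted p = 1.49e-05). CA12, a membrane carbonic anhydrase that regulates pH outside the cell, had 117 and 122 CPM in BRD9 KO and 99.0 and 104 CPM in LacZ control (0.24, SE 0.04, edgeR adjusted p = 2.07e-05).

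The remaining tested targets did not pass. VEGFA, the angiogenic growth factor, had 32.0 and 30.2 CPM in BRD9 KO and 34.4 and 33.9 CPM in LacZ control (log2 fold change -0.13, SE 0.06, edgeR adjusted p = 0.103). ERO1L, an oxidase that drives disulfide formation in the endoplasmic reticulum, overlapped at 149.8 and 145 CPM in BRD9 KO and 150.4 and 149.6 CPM in LacZ control. ANKRD37, which encodes an ankyrin-repeat protein, had 2.31 and 2.20 CPM in BRD9 KO and 2.99 and 3.0 CPM in LacZ control (-0.40, SE 0.23, edgeR adjusted p = 0.183). It was the least securely counted member, because the posterior SD of its counts in the deposited tables was 19.0% of the count and its exons overlap UFSP2 on the opposite strand. KDM4D, a histone H3 lysine demethylase, had 1.64 and 1.29 CPM in BRD9 KO and 2.79 and 2.10 CPM in LacZ control (-0.72, SE 0.29, edgeR adjusted p = 0.0588), and passed when only genes above 1 CPM in all libraries were tested (adjusted p = 0.0214).

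The 4 genes at 0 counts in every library included 3 of the other HIF targets. A count of 0 allows up to 0.153 and 0.183 CPM in BRD9 KO and 0.199 and 0.180 CPM in LacZ control, taking 3 counts as the limit, which covers counting error only. CA9, the membrane carbonic anhydrase widely used as a hypoxia marker, lay between ARHGEF39 and TPM2, whose models held 880 and 11408 counts over the 4 libraries. EGLN3 lay beside NPAS3, also at 0, and SPTSSA, with 3481 counts. NDRG1, a stress-induced gene, ended a run of 3 models at 0 that began with SLA. The run was flanked by TG with 5 counts and ST3GAL1 with 2 counts over the 4 libraries.

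MIF, a cytokine gene that is abundant in most cell types, was at 0 together with its whole neighborhood. It lies at chr22:24236570-24237414 (GRCh37) within 20 consecutive protein-coding models at 0 in all libraries, from IGLL1 to SUSD2 over 669.8 kb, and SMARCB1, the gene lost in rhabdoid tumors, is 1 of them. The run also holds CHCHD10, DDT and CABIN1. BCR, on one side, had 1513 and 1342 counts in BRD9 KO and 1085 and 1222 counts in LacZ control. SPECC1L, beyond GGT5 on the other side, had 1571 and 1312 counts in BRD9 KO and 1113 and 1189 counts in LacZ control. Outside chromosome Y, 10 runs of at least 20 protein-coding models were at 0 in all libraries, the run with MIF among them. The longest ran from OR4B1 to LRRC55 on chromosome 11 (64 models) and the next from KRT20 to KRT32 on chromosome 17 (45 models). This count does not show whether the runs hold genes of the same kind, which was not examined.

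**Figure D4:**
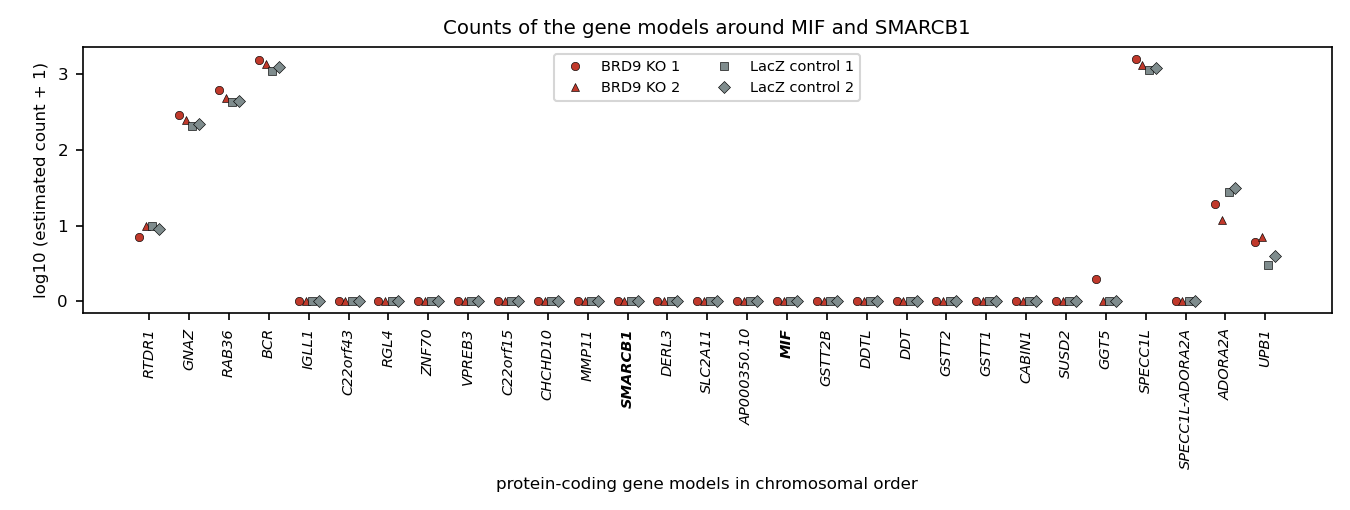
Estimated counts (y axis, log10 of count + 1) of the protein-coding gene models around MIF and SMARCB1 in chromosomal order (x axis) in the 2 BRD9 KO libraries (red) and the 2 LacZ control libraries (grey). All 20 models from IGLL1 to SUSD2 sit at 0 in all 4 libraries between BCR and SPECC1L, where the lowest library has 1085 and 1113 counts.

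Further genes of the pathway were taken from lists set beside the 42. Of 32 tested further HIF targets 10 rose and 3 fell, with a median log2 fold change of 0.03, and the 40.6% that passed is close to the 38.6% of all genes tested. HMOX1, heme oxygenase, had 114 and 109 CPM in BRD9 KO and 58.0 and 55.1 CPM in LacZ control (0.98, SE 0.04, edgeR adjusted p = 2.43e-13). TFRC, the transferrin receptor, had 311 and 318 CPM in BRD9 KO and 220.4 and 225 CPM in LacZ control (0.50, SE 0.02, edgeR adjusted p = 8.41e-13). CA2, a cytosolic carbonic anhydrase, had 96.8 and 100.4 CPM in BRD9 KO and 58.9 and 55.4 CPM in LacZ control (0.79, SE 0.04, edgeR adjusted p = 1.06e-11). The 3 that fell, named after their values were seen, were WSB1, ZNF395 and ANKZF1, with log2 fold changes of -0.21, -0.23 and -0.18 (edgeR adjusted p = 7.53e-07, 0.00545 and 0.0296). HMOX1 is also induced by heme and oxidants, and TFRC is also controlled by iron.

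Of 9 tested transporters of glucose and lactate 2 rose and 1 fell, or 33.3% against 38.6% of all genes. Those that rose were SLC2A6 (log2 fold change 0.41, edgeR adjusted p = 3.47e-05) and SLC2A8 (0.29, edgeR adjusted p = 0.0157), and the SLC2A8 call was lost under DESeq2 (adjusted p = 0.102), under limma on log2 TPM (adjusted p = 0.0785 with a pseudocount of 1), without BRD9 KO library 1 (0.16, edgeR adjusted p = 0.275) and without LacZ control library 1 (0.24, edgeR adjusted p = 0.155). Leaving out 1 library moved its log2 fold change over 0.16 to 0.41. SLC2A1, named after its values were seen, the main glucose transporter and a HIF target, did not pass, at 555 and 560.3 CPM in BRD9 KO and 550.2 and 545 CPM in LacZ control (log2 fold change 0.03, SE 0.01, edgeR adjusted p = 0.193). SLC16A3, the lactate exporter MCT4, had 85.4 and 84.4 CPM in BRD9 KO and 97.3 and 97.1 CPM in LacZ control (-0.19, SE 0.03, edgeR adjusted p = 0.000168), a call lost under limma on log2 TPM (-0.11, adjusted p = 0.183). Of 10 tested other regulators of HIF 3 rose and 1 fell, or 40.0%. CITED2, which competes with HIF for the coactivators CBP and p300, was the one that fell, with 282 and 285 CPM in BRD9 KO and 348 and 344 CPM in LacZ control (-0.29, SE 0.02, edgeR adjusted p = 4.91e-10). TCEB2 and CUL2, elongin B and the cullin of the VHL ligase, rose by 0.16 and 0.13 on the log2 scale (edgeR adjusted p = 0.000278 for TCEB2 and 0.00284 for CUL2), and the CUL2 call was lost without LacZ control library 2 (edgeR adjusted p = 0.0600). HIF1AN, the asparagine hydroxylase that blocks the same contact, had 98.0 and 93.9 CPM in BRD9 KO and 88.2 and 86.0 CPM in LacZ control (0.14, SE 0.04, edgeR adjusted p = 0.00422), a call lost without LacZ control library 2 (edgeR adjusted p = 0.0708) and under limma on log2 TPM (0.05, adjusted p = 0.631).

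Within the 42 genes, 12 of the 21 calls held under every one of 14 alternative fits. They were HK1, PFKP, TPI1, PGK1, PGAM1, PKM, PFKFB2, CA12, ADM, P4HA2, DDIT4 and BHLHE40. The calls of HK2, ENO1 and HIF1A were lost only under limma on log2 TPM (adjusted p 0.0666 to 0.0735), and that of PFKFB4 only there with a pseudocount of 0.1 (adjusted p = 0.0513). Exons of TPI1, PGK1 and PFKFB2 among the 12 overlap another tested gene, as do those of PFKM, PDK1 and HIF1A among the other called genes. Outside the 42 genes, so do those of ANKZF1, ZNF395, SLC16A3, TCEB2, CUL2 and HIF1AN.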

How the data were processed

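All 4 libraries were used, grouped by their titles. Per the labels and the study's methods, RNA was made into libraries with a NEBNext Ultra kit that does not mark strand, the authors' alignment used STAR on hg19, and RSEM gave the gene values (no version is stated). The deposited expected count (estimated count) was rounded to whole numbers. The deposited TPM, a length-scaled share of each library, was used for levels between genes. The deposited posterior mean count served as an alternative, and the authors' posterior SD of the count, a score of assignment uncertainty, and effective length were given where they bear on a member.

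Genes were filtered with filterByExpr, scaled by TMM and tested two-sided with edgeR 4.0.16 (robust quasi-likelihood, R 4.3.3), with p-values adjusted (Benjamini-Hochberg) over 15288 genes and a threshold of 0.05. The fit was run on simulated data in which 200 of the 15288 genes changed. That is far fewer than passed here, so the simulation does not show how the fit behaves at the share called in these data. Alternatives were DESeq2 1.42.0, its size factors, library totals, no filter, a 1 CPM filter, limma 3.58.1 on log2(TPM + 1) and log2(TPM + 0.1), posterior mean counts, a replicate block, removal of mitochondrially encoded genes, each library left out, and a threshold of 0.01. All 42 members were named, and called members are given in every library. Of the other lists, up to 4 called genes each were to be named, and some of these are not reported here. Members and lists were chosen with earlier results of these data known. Positions of genes came from a GENCODE annotation lifted to GRCh37, and promoter windows from RefSeq on GRCh38.p14.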

Additional observations from a re-analysis of the deposited data

How the results depend on the processing

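No member changed direction while called under any alternative, and over the 15288 genes of the edgeR fit no alternative moved the median log2 fold change by more than 0.02. Over all genes that DESeq2 or the fit without a filter covers, which include those with few counts, it was -0.05 in each. Over all genes 3127 rose and 2774 fell in BRD9 KO; DESeq2 left 1437 lower, and limma on TPM left 1341 higher and 1103 lower (pseudocount 1) or 1328 higher and 1089 lower (pseudocount 0.1). Leaving out 1 library gave 2357 to 2694 higher and 1838 to 2268 lower, the lowest without LacZ control library 2. The 17 higher members became 14 to 18 and the 4 lower became 2 to 3 on leaving out 1 library, with 2 lower without BRD9 KO library 2 or LacZ control library 2, 2 under DESeq2 and limma on log2(TPM + 1), and 1 under limma on log2(TPM + 0.1). No glycolytic enzyme fell (0) under DESeq2, without the filter, under limma on TPM, at a threshold of 0.01 or on leaving out any library. Lower other HIF targets numbered 2, through KDM4D, under the 1 CPM filter and with posterior mean counts (edgeR adjusted p = 0.0497). The median log2 fold change of glycolytic enzymes, 0.07, was 0.0863 under DESeq2, 0.0663 with library totals, 0.0885 with no filter, 0.0644 with the 1 CPM filter, 0.12 under limma with either pseudocount, and 0.0706 to 0.0928 on leaving out 1 library. That of other HIF targets ran over -0.0277 to 0.0287 on leaving out 1 library, so its sign is not settled. Same-numbered libraries did not deviate together (correlation -0.05), and a replicate block left every member call as it was (17 higher, 4 lower) with 3226 genes higher and 2883 lower over all genes. The calls of PFKM, PDK1, ARNT and EGLN2 were each lost under 5 or more settings. The cause of these changes was not tested. The 4 genes at 0 are limited by the floor given above.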

Other observations

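The branches next to glycolysis gave values of their own. Of 8 tested genes of the pentose phosphate pathway, which draws glucose 6-phosphate away to make NADPH and ribose, 1 rose and 4 fell in BRD9 KO, against 20.5% higher and 18.1% lower over all genes tested. TKT, transketolase, had 341 and 350.5 CPM in BRD9 KO and 384 and 383 CPM in LacZ control (log2 fold change -0.15, SE 0.02, edgeR adjusted p = 2.52e-06). H6PD, an enzyme of the endoplasmic reticulum, had 98.2 and 91.4 CPM in BRD9 KO and 121 and 121 CPM in LacZ control (-0.35, SE 0.04, edgeR adjusted p = 2.05e-07). TALDO1, transaldolase, had 123 and 123 CPM in BRD9 KO and 141 and 133 CPM in LacZ control (-0.15, SE 0.03, edgeR adjusted p = 0.000907). The calls of H6PD and TALDO1, but not that of TKT, were lost under limma on TPM.

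Of 10 tested genes of pyruvate dehydrogenase and gluconeogenesis, none rose and 1 fell, or 10.0% against 38.6% of all genes. It was PCK2, the mitochondrial phosphoenolpyruvate carboxykinase, with 27.5 and 28.3 CPM in BRD9 KO and 41.6 and 39.3 CPM in LacZ control (log2 fold change -0.53, SE 0.06, edgeR adjusted p = 8.44e-07). Of 8 tested further isozymes of glycolysis 3 rose and 3 fell, or 75% against 38.6% of all genes. ENO3, the muscle enolase, had 26.2 and 26.5 CPM in BRD9 KO and 43.3 and 44.7 CPM in LacZ control (-0.74, SE 0.06, edgeR adjusted p = 5.5e-09). The exons of ENO3 overlap PFN1 on the opposite strand, and the library kit does not mark strand. C12orf5, the gene of the fructose bisphosphatase TIGAR, had 45.9 and 43.4 CPM in BRD9 KO and 32.8 and 29.9 CPM in LacZ control (0.51, SE 0.06, edgeR adjusted p = 1.26e-06). HKDC1, a further hexokinase, had 7.23 and 8.02 CPM in BRD9 KO and 3.58 and 4.74 CPM in LacZ control (0.86, SE 0.17, edgeR adjusted p = 0.000333). LDHD, the D-lactate dehydrogenase, had 4.46 and 4.35 CPM in BRD9 KO and 6.70 and 6.24 CPM in LacZ control (-0.55, SE 0.16, edgeR adjusted p = 0.00935), a call lost under DESeq2 (adjusted p = 0.111).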
